A study of Mus musculus with 5 samples.

Results

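Mt1, Mt2 and Mt4 are the genes described here. They were found by their symbols in the gene lists deposited with 5 single-cell RNA libraries of mouse skin and are 3 of the 27998 genes listed. Metallothioneins are small, cysteine-rich proteins that bind zinc and copper. Mt1 and Mt2 are made in most tissues and are induced by zinc through the transcription factor Mtf1, by glucocorticoids and by oxidative stress, whereas Mt4 is known from stratified squamous epithelium such as epidermis. The epidermis renews from a basal layer marked by Krt5 and Krt14, whose cells switch to Krt1 and Krt10 as they move into the spinous layer. The comparisons ask how the 3 genes are spread over the cell types of skin and how their levels stand in a wound against intact skin.

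All mice were C57BL/6. The wounded group held 3 libraries (wounded 1 to 3) from the wound of mice that received a 6-mm punch at 7 weeks of age and gave a 10-mm punch around the wound 4 days later, and the un-wounded group held 2 libraries (un-wounded 1 and 2) of normal skin, whose age was not used here. All cells of the skin were dissociated, sorted as live and captured by droplet 3′ sequencing with unique molecular identifiers (UMIs). Each UMI stands for 1 captured transcript end whatever the transcript's length, so values are CPM, the UMIs of a gene per 1000000 UMIs of the cells summed, with no scaling by length. Nothing says that the libraries came from separate animals, so p-values measure the spread between these libraries.

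The wounded libraries held 7578, 4698 and 4152 cell barcodes and the un-wounded libraries 5372 and 5517, with 33537809 to 59621412 UMIs a library. After filters 25617 cells remained, with median UMIs per cell of 6666.5, 6069 and 7940 in wounded libraries and 6033.5 and 6828 in un-wounded libraries. Any pair of libraries shared 26 to 63 barcodes. The cells formed 31 clusters, of which 28 took a name from marker genes, in 15 classes. A class name stands for cells that resemble that type. The 5 classes with at least 30 cells in every library were tested. Basal keratinocytes numbered 1548, 32 and 156 cells in wounded libraries and 2267 and 957 in un-wounded libraries, and spinous keratinocytes 793, 49 and 144 against 952 and 697. Fibroblasts, outer root sheath or bulge keratinocytes and upper hair follicle keratinocytes had between 36 and 2206 cells a library. The spinous class carried its label's markers: 7 of its 8 markers, Krt1, Krt10 and Krtdap among them, reached 10 CPM in each of its 3 clusters. The top genes of the upper hair follicle class also held the haemoglobin genes Hbb-bs, Hba-a1 and Hba-a2, and those of the vascular endothelial class the lymphatic gene Ccl21a.

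In the GENCODE annotation of the GRCm38 build the 3 genes and Mt3 lie in 1 row on the plus strand of chromosome 8, spread over 43131 bases. Mt4 (ENSMUSG00000031757) spans 94137197 to 94139031, Mt2 (ENSMUSG00000031762) spans 94172664 to 94173568, and Mt1 (ENSMUSG00000031765) spans 94179082 to 94180327. Their coding sequences are 61 codons long in Mt1 and Mt2 and 62 in Mt4, and each holds 20 cysteine codons. Coding sequence identity was 79.57% between Mt1 and Mt2, 66.84% between Mt1 and Mt4 and 73.16% between Mt2 and Mt4. No stretch of 50 bases was shared between any pair of transcripts. Mt2 overlaps Gm45774 on the opposite strand, and whether counting used the strand is not given in the sources used here.

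The promoters are shown because Mt1 and Mt2 moved together across cell types below while Mt4 did not follow them, and the metal response element (MRE) is the site through which Mtf1 acts on metallothionein genes. The windows are the 250 bases before each RefSeq start on the plus strand of GRCm38.p6, and capitals mark matches to the MRE core, TGCACNC or TGCGCNC, on either strand.
Mt1, chr8:94178839-94179088: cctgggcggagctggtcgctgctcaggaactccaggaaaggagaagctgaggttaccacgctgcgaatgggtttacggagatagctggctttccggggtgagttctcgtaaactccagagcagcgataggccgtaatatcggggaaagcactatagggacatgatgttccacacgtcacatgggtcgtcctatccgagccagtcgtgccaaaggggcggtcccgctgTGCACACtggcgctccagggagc
Mt2, chr8:94172368-94172617: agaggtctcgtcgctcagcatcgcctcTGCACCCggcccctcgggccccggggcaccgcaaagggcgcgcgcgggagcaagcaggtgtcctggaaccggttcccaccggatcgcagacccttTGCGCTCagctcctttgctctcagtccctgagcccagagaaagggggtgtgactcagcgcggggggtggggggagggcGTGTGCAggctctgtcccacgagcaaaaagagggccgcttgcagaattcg
Mt4, chr8:94136954-94137203: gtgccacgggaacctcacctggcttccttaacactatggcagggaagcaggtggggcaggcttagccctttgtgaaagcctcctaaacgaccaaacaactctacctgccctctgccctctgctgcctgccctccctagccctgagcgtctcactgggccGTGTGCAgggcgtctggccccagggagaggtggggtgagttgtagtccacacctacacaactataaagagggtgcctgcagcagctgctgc
Mt2 held 3 matches, at −223 to −217, −128 to −122 and −50 to −44 from the start, the last on the minus strand. Mt1 held 1 match at −23 to −17, and Mt4 held 1 at −91 to −85 on the minus strand. Among 32851 such windows, 21.41% held at least 1 match and 1.263% held 3 or more. TATAAA, the TATA box, stood at −30 to −25 in Mt4 and in 12.37% of all windows. In Mt1 and Mt2 TATAAA lay downstream of the annotated start, at bases 129 and 90 of the stretch before the start codon. That stretch, counted from the GENCODE start, is 229 bases long in Mt1 and 184 in Mt2. In Mt2 the GENCODE start lies 46 bases after the RefSeq start, and those 46 bases were not searched. The stretch before the start codon held 4 further MRE matches in Mt1 and 3 in Mt2, and none in the 45 bases of Mt4. These matches describe letters and not bound sites. GENCODE also lists transcripts with later starts, at 94179241 in Mt1 and 94172860 in Mt2, for which no window was drawn. The window counts therefore hold for the RefSeq starts only.

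Mt4 was concentrated in spinous keratinocytes in all 5 libraries. Its level there was 1482, 1824 and 1072 CPM in wounded libraries and 1114 and 2308 CPM in un-wounded libraries. Basal keratinocytes, the layer beneath, had 33.6, 33.5 and 47.2 CPM in wounded libraries and 41.6 and 91.0 CPM in un-wounded libraries. Each library's spinous level was therefore far above its own basal level, and the lowest spinous library stood above the highest basal library. Spinous cells made up 11.2%, 1.11% and 3.61% of the cells in wounded libraries and 18.9% and 13.6% in un-wounded libraries. They held 91.9%, 83.7% and 88.1% of all Mt4 UMIs in wounded libraries and 90.03% and 93.0% in un-wounded libraries. Mt4 was not among the genes used for clustering, yet it led the top genes of 1 spinous cluster and was among the top 10 of another. Cell types were compared by description only, without a test.

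**Figure D1:**
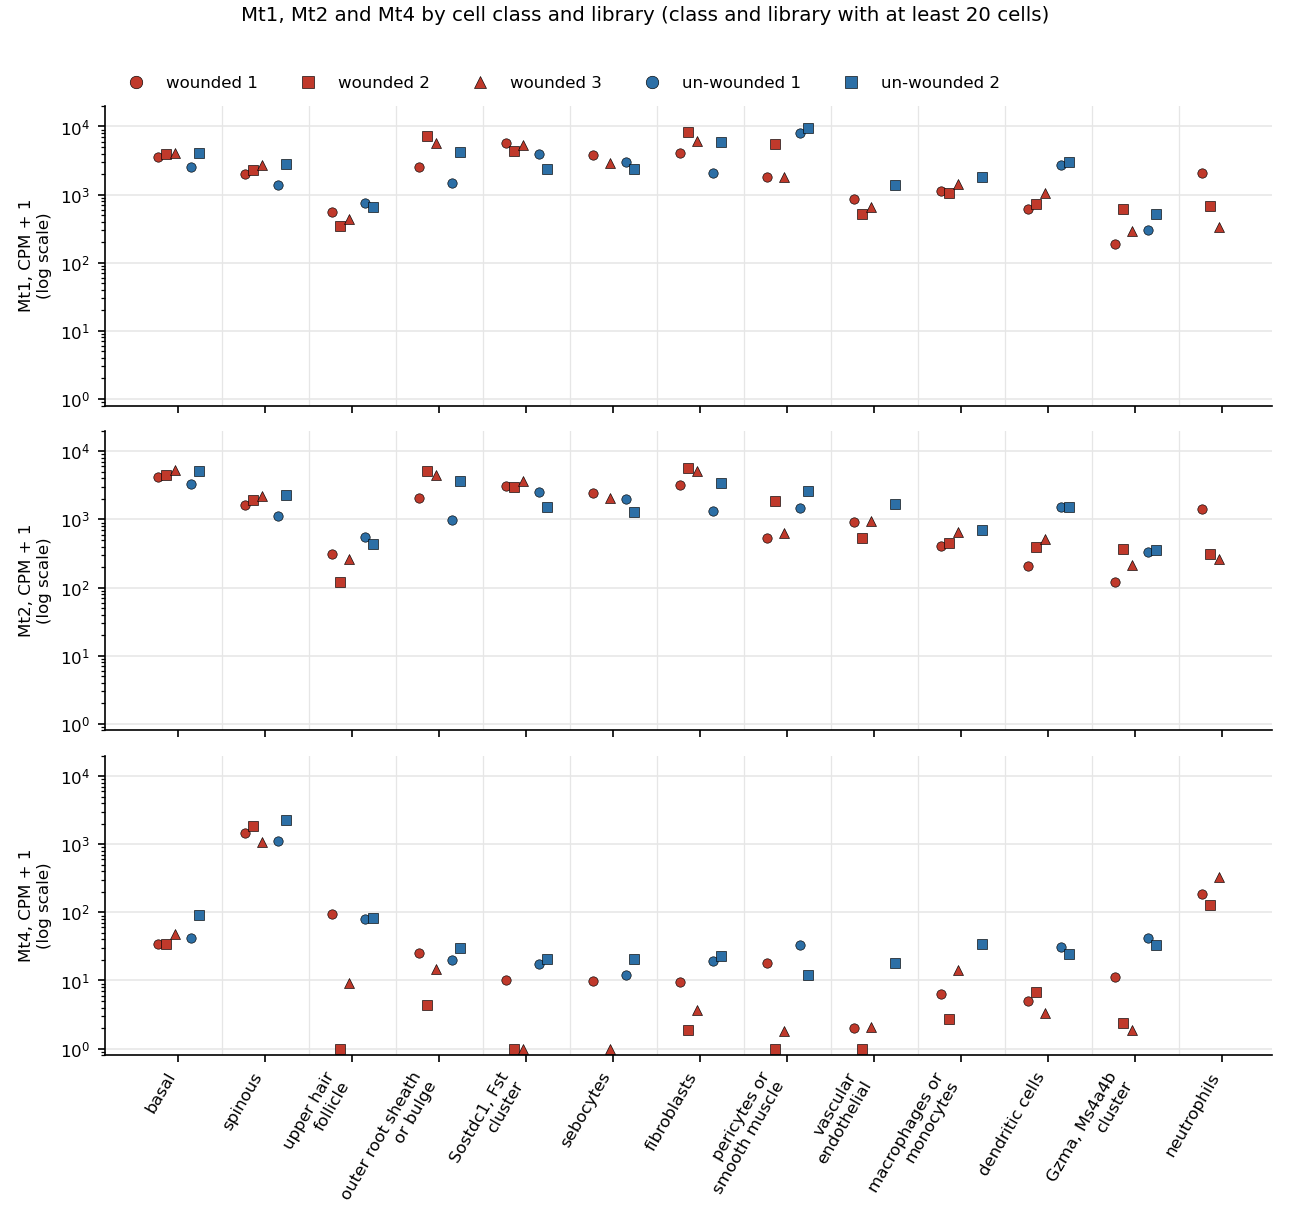
Levels of Mt1, Mt2 and Mt4 (CPM + 1, log scale) in the cell classes plotted, for libraries with at least 20 cells of the class, 1 point a library, wounded in red left of un-wounded in blue. Mt4 sits between 1072 and 2308 CPM in spinous cells and lower elsewhere, while Mt1 and Mt2 are present in every class plotted.

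In a sum over non-keratinocyte classes Mt4 was low and followed the library. The sum took fibroblasts, macrophages or monocytes, dendritic cells, vascular endothelial cells and pericytes or smooth muscle cells. It had 9.44, 2.27 and 4.75 CPM in wounded libraries, where all kept cells had 208, 31.7 and 63.9 CPM. The un-wounded libraries had 19.5 and 22.0 CPM in that sum, where all kept cells had 291 and 486 CPM. In droplet data free RNA can give UMIs in cells that do not express a gene, and its part in these levels was not tested. Neutrophils, found in wounded libraries only (53, 135 and 33 cells), had more, 184, 125 and 327 CPM, and their summed spinous markers stood at 9372, 1942 and 4268 CPM with 7 or 8 of 8 markers detected. The part those keratinocyte transcripts play in the Mt4 value was not tested. Neutrophils were not in the sum. T cells, also left out, had 0 to 381 CPM in wounded and 19.4 to 67.9 CPM in un-wounded libraries. The 381 CPM was wounded 1, with 31 T cells and with Krt1 and Krt10 together at 6542 CPM. Wounded 2 and 3, with 9 and 19 T cells, held 0 Mt4 UMIs. In un-wounded T cells Krt1 and Krt10 stood at 3018 and 194 CPM. The part of these keratins in the Mt4 values of T cells was not tested. Skeletal muscle cells, left out too, had 1.23 to 103 CPM in wounded libraries. The 103 CPM was wounded 2, with 36 Mt4 UMIs and with Krt1 and Krt10 together at 988 CPM. The part of those keratinocyte transcripts was not tested. In un-wounded libraries the value was 0, in only 6 and 4 cells.

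Mt4 was also set against the spinous keratins Krt1 and Krt10. Spinous cells held 5.70, 10.9 and 5.61 Mt4 UMIs per 100 Krt1 and Krt10 UMIs in wounded libraries and 4.84 and 13.9 in un-wounded libraries. Basal cells held 5.06, 5.52 and 5.36 in wounded libraries and 4.26 and 15.9 in un-wounded libraries, so the ratio in basal cells lay near the same library's spinous ratio except in wounded 2, where it rested on 8 Mt4 UMIs. Upper hair follicle keratinocytes carried Krt10 but little Mt4, with 1.37, 0 and 0.228 per 100 in wounded libraries and 1.37 and 2.30 in un-wounded libraries. Wounded 2 and un-wounded 2 had the most Mt4 for their keratin in spinous cells, 1 library of each group.

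A continuous view came from the keratins themselves. Basal and spinous cells were binned by the share of Krt1 and Krt10 among the UMIs of Krt1, Krt10, Krt5 and Krt14, which used 7542 of 7595 cells. Mt4 in cells with a share of 0 to 5% was 21.6, 24.7 and 18.9 CPM in wounded libraries and 24.5 and 50.8 CPM in un-wounded libraries. Cells with a share of 90 to 100% had 1955, 2495 and 1630 CPM in wounded libraries and 1499 and 2902 CPM in un-wounded libraries. Mt1 and Mt2 ran the other way: each was lower in the last bin than in the first in all 5 libraries. Mt2 in the last bin was 1091, 1695 and 1786 CPM in wounded libraries and 710 and 1633 CPM in un-wounded libraries, and in the first bin 4304, 3844 and 5280 CPM in wounded libraries and 3564 and 5308 CPM in un-wounded libraries. The matching last-bin levels of Mt1 were 1688, 2365 and 2605 CPM in wounded libraries and 1059 and 2387 CPM in un-wounded libraries, against first-bin levels of 3578, 3382 and 4196 CPM and of 2752 and 4297 CPM.

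**Figure D2:**
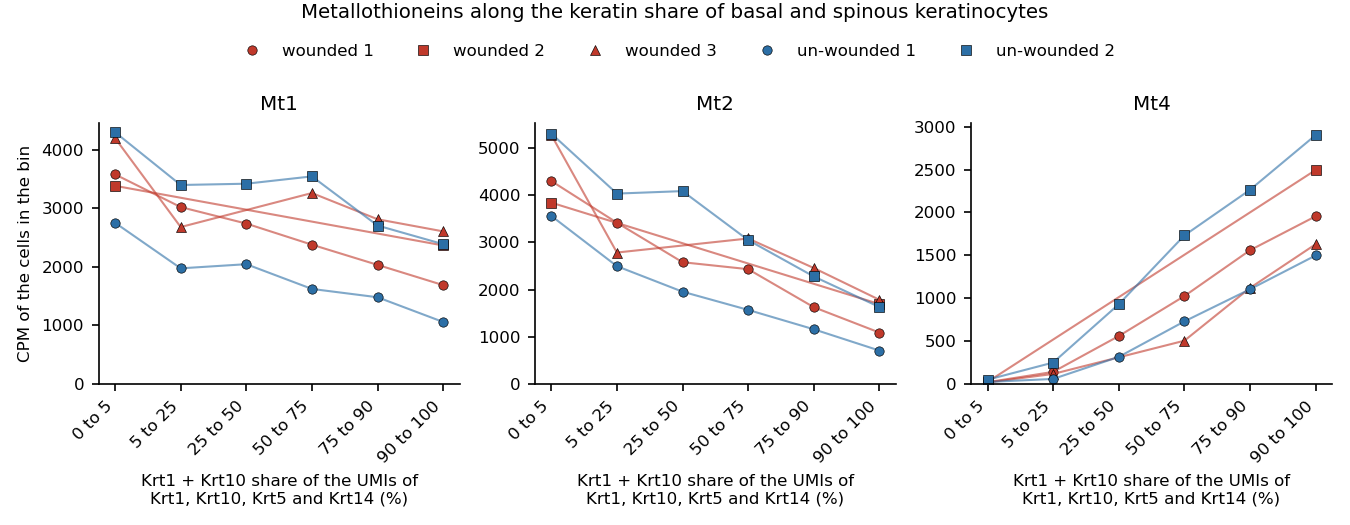
CPM of each gene in basal and spinous cells binned by the Krt1 and Krt10 share of the UMIs of Krt1, Krt10, Krt5 and Krt14, 1 line a library, wounded red and un-wounded blue. Bins with under 20 cells are not drawn, so wounded 2 has only its first and last bin; Mt4 climbs to between 1499 and 2902 CPM in the last bin while Mt1 and Mt2 decline.

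Mt1 and Mt2 were found in every class. In basal keratinocytes Mt2 had 4243, 4512 and 5261 CPM in wounded libraries and 3279 and 5054 CPM in un-wounded libraries. Fibroblasts had 3184, 5621 and 5105 CPM of Mt2 in wounded libraries and 1308 and 3412 CPM in un-wounded libraries. Upper hair follicle keratinocytes were the lowest of the 5 tested classes in every library for both genes, with Mt1 at 558, 345 and 443 CPM in wounded libraries and 747 and 658 CPM in un-wounded libraries. Fibroblasts held 46.9%, 84.6% and 73.1% of all Mt1 UMIs in wounded libraries and 6.87% and 52.3% in un-wounded libraries. Within single libraries the Spearman correlation of Mt1 and Mt2 over cells was 0.52 to 0.74 in spinous cells, 0.68 to 0.80 in basal cells and 0.59 to 0.84 in fibroblasts. It was lower in upper hair follicle cells, at −0.21 in wounded 2 with its 36 cells and 0.24 to 0.40 in the other libraries. Mt4 and Mt1 over the same spinous cells gave −0.04 to 0.28. These are descriptions over cells that share a library and differ in depth.

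Over libraries with at least 30 cells of a class, the balance of Mt2 to Mt1 set some cell types apart from each other. Other classes overlapped, and some varied widely between libraries. Spinous keratinocytes held 0.805 to 0.836 Mt2 UMIs per Mt1 UMI over the 5 libraries, and basal keratinocytes 1.13 to 1.29, with no overlap. Fibroblasts lay at 0.581 to 0.821, macrophages or monocytes at 0.366 to 0.468 and pericytes or smooth muscle cells at 0.184 to 0.345. Macrophages or monocytes and pericytes or smooth muscle cells each had 4 such libraries. Dendritic cells, at 0.332 to 0.540, overlapped both of these classes. Langerhans cells, at 0.350 to 0.513 in 2 libraries, overlapped macrophages or monocytes. Vascular endothelial cells, at 1.04 and 1.43 in 2 libraries, lay on either side of the basal range. Outer root sheath or bulge cells, at 0.668 to 0.847, overlapped fibroblasts and spinous cells, which also overlapped each other. Ranges were wide in upper hair follicle cells (0.348 to 0.729), the cluster led by Gzma and Ms4a4b (0.605 to 1.09) and skeletal muscle cells (0.917 to 1.41). In fibroblasts the ratio was 0.781, 0.687 and 0.821 in wounded libraries and 0.630 and 0.581 in un-wounded libraries, so that each wounded library stood above both un-wounded libraries. No test was made of that last difference, which was chosen after its values were seen. A ratio of counts also carries how well each gene's 3′ end is captured, so it is read here between cell types and not as a ratio of molecules.

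**Figure D3:**
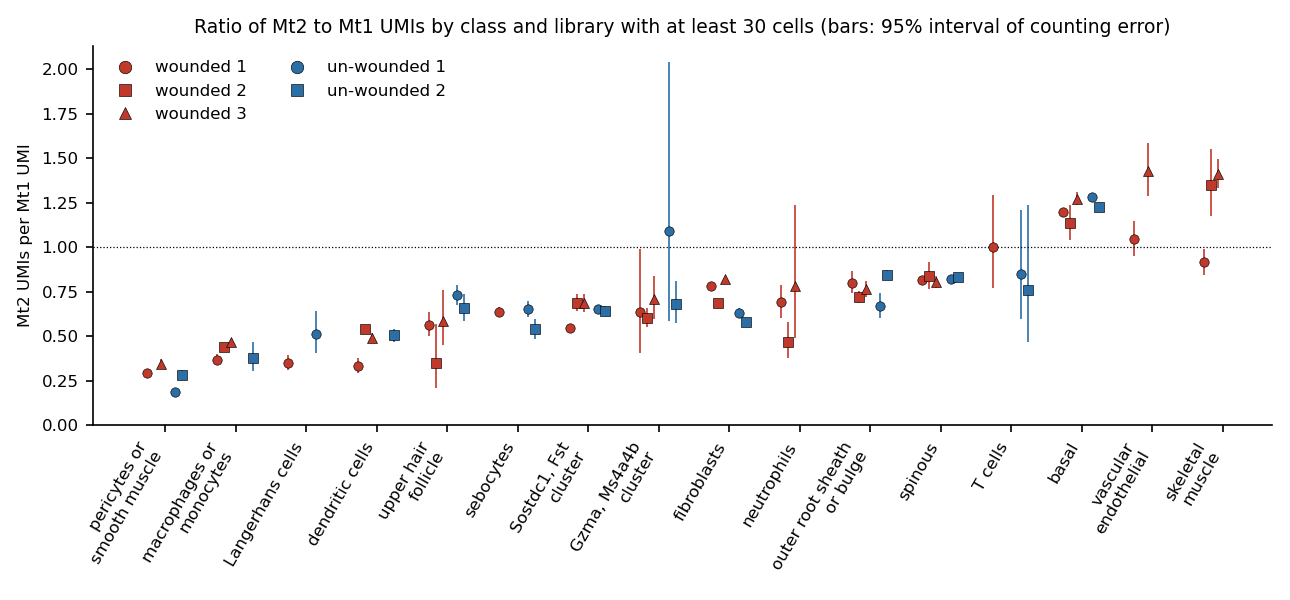
Mt2 UMIs per Mt1 UMI in each class and library with at least 30 cells, for classes with 2 or more such libraries, wounded red left of un-wounded blue. Bars are 95% intervals of counting error only; basal libraries lie at 1.13 to 1.29 and pericytes or smooth muscle cells at 0.184 to 0.345.

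Genes with the most similar pattern were sought over 65 profiles of class by library with at least 30 cells, among 7263 genes that reached 50 CPM in 1 profile. Mt1 went most closely with Mt2 (Pearson r of log2(CPM + 1), 0.92), and then with Klf9 (0.79), Id3 (0.77), Egr1 (0.74) and Cyr61 (0.72). After Mt1, the nearest to Mt2 were Tnfrsf12a (0.80), Cyr61 (0.78), Klf9 (0.77) and Nfix (0.74). Mt4 went with Krt10 (0.84), Krt1 (0.83), Krt77 (0.79), Krtdap (0.78) and Calm5 (0.77); Krt1, Krt10 and Krtdap were also the spinous markers. Mt4 had r = 0.02 with Mt1 and 0.12 with Mt2. The profiles share libraries and depth, so no p-value is given.

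The wound comparison was made with edgeR's quasi-likelihood test on UMIs summed per library and class, adjusted by Benjamini-Hochberg over all genes tested. None of the 18 tests of Mt1, Mt2 and Mt4, over all kept cells and in the 5 classes, gave an adjusted p under 0.05. In those 18 tests 4 unadjusted p-values were under 0.05, and DESeq2 called 1, Mt4 over all kept cells. The share of all genes with an unadjusted p under 0.05 is not given here, so no excess is read from the 4. Genes called made up 0.607% of those tested over all kept cells, 1.84% in basal keratinocytes, 1.64% in spinous keratinocytes, 7.51% in fibroblasts, 0.725% in outer root sheath or bulge keratinocytes and 0.207% in upper hair follicle keratinocytes. A p that misses the threshold does not show that the levels were equal, and the spread within the un-wounded group was wide: in spinous cells un-wounded 2 was above un-wounded 1 by 2.03 times for Mt1, 2.05 times for Mt2 and 2.07 times for Mt4.

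In spinous keratinocytes the levels of the 3 genes overlapped between groups. Mt4 averaged 1460 ± 376 CPM in wounded libraries and 1711 ± 844 CPM in un-wounded libraries (SD, n = 3 and 2). Its log2 fold change was −0.07 ± 0.36 (SE), with an edgeR adjusted p of 0.98997. Both un-wounded libraries bracketed every wounded library except wounded 3, which was the lowest of all 5. Mt1 had 2022, 2291 and 2697 CPM in wounded libraries and 1372 and 2782 CPM in un-wounded libraries, a log2 fold change of 0.37 ± 0.38 with an edgeR adjusted p of 0.906. Mt2 had 1652, 1916 and 2170 CPM in wounded libraries and 1128 and 2316 CPM in un-wounded libraries, a log2 fold change of 0.35 ± 0.37 with an edgeR adjusted p of 0.915. For both genes every wounded library lay between the un-wounded libraries. In spinous cells 26.7% of all genes tested had groups that did not overlap. The sign of the Mt4 value turned without wounded 3 (0.047) and without un-wounded 2 (0.59), and those of Mt1 and Mt2 turned without un-wounded 1 (−0.094 and −0.12).

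The share of spinous cells with at least 1 Mt4 UMI was compared at 1500 UMIs per cell, to which every spinous cell could be thinned. It was 67.1%, 51.0% and 50.7% in wounded libraries and 63.1% and 75.5% in un-wounded libraries, and without thinning 83.7%, 67.3% and 75% against 83.8% and 92.0%. The difference of the thinned means, wounded minus un-wounded, was −13.0 percentage points with p = 0.3 in a two-sided exact permutation test, in which 3 against 2 libraries cannot give less than 0.1. Fibroblasts, which should lack Mt4, showed a thinned share of 1.04%, 0.158% and 0.213% in wounded libraries and 2.31% and 2.91% in un-wounded libraries, with unthinned medians of 4857 to 9498 UMIs a cell, against 7627.5 to 13309 in spinous cells. Thinned shares for Mt1 differed by −1.76 points and for Mt2 by −2.21 points, each with p = 0.8 in the exact permutation test. Mt4 was unevenly spread over spinous cells: the top 10% of cells held 34.3%, 51.6% and 42.6% of Mt4 UMIs in wounded libraries and 33.5% and 36.1% in un-wounded libraries.

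Mt4 was then set against Mt1 and Mt2 within the same spinous cells. The ratio of Mt4 UMIs to the sum of Mt1 and Mt2 UMIs was 0.403, 0.434 and 0.220 in wounded libraries and 0.446 and 0.453 in un-wounded libraries. All 3 wounded ratios were below both un-wounded ratios, and wounded 3 stood apart. On the log2 scale the difference of means was −0.41, with p = 0.5 in a two-sided exact permutation test. It was −0.10 without wounded 3. The log2 ratios averaged over the 3 spinous clusters, an alternative added after the clusters were seen, differed by −0.17 between the group means, and the order was lost: wounded 1, at −0.998, was above the un-wounded libraries, at −1.15 and −1.19.

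The 3 spinous clusters differed in their metallothioneins, and the libraries differed in their mix. The cluster led by Krt16 and Ovol1, with Krt6b and Sprr1b among its top genes, made up 56.2%, 30.6% and 59.0% of spinous cells in wounded libraries and 29.9% and 20.9% in un-wounded libraries. The cluster led by Mt4 and Krt1 made up 14.9%, 51.0% and 18.8% in wounded libraries and 40.1% and 57.7% in un-wounded libraries, so that wounded 2, with 49 spinous cells, stood between the un-wounded libraries. Krt16 and Krt6b are keratins known from activated epidermis. In each of the 4 libraries with at least 20 cells of every cluster, Mt4 was lower and Mt1 and Mt2 higher in the Krt16 cluster than in either other cluster. Mt4 in the Krt16 cluster was 1031 and 853 CPM in wounded 1 and 3 and 709 and 1421 CPM in the un-wounded libraries. In the cluster led by Gm94 and Krt77 it was 2049 and 1628 CPM in wounded 1 and 3 and 1549 and 3050 CPM in the un-wounded libraries. Mt2 in the Krt16 cluster was 2228 and 2919 CPM in wounded 1 and 3 and 1908 and 4499 CPM in the un-wounded libraries, beside 845 and 808 CPM and 605 and 1452 CPM in the Krt77 cluster. Within each cluster the groups overlapped for all 3 genes, since un-wounded 1 and un-wounded 2 lay on either side of at least 1 wounded library.

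**Figure D4:**
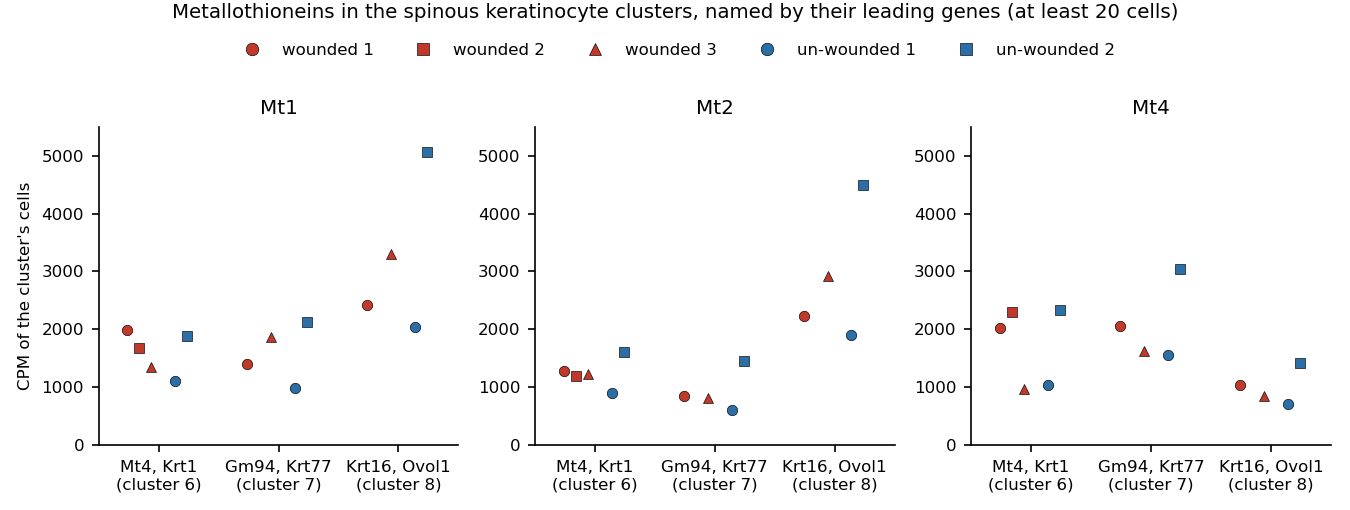
CPM of Mt1, Mt2 and Mt4 in the 3 spinous clusters, named by their leading genes, in libraries with at least 20 cells of the cluster, wounded red left of un-wounded blue. The Krt16 and Ovol1 cluster has the highest Mt1 and Mt2 and the lowest Mt4 of the 3 clusters in each library that has all 3.

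In basal keratinocytes Mt1 was 3538, 3976 and 4135 CPM in wounded libraries and 2551 and 4122 CPM in un-wounded libraries. Its log2 fold change was 0.40 ± 0.32 and that of Mt2 0.35 ± 0.32, with edgeR adjusted p of 0.820 and 0.854. Mt4, at the low level given above, had −0.55 ± 0.33 with an edgeR adjusted p of 0.697. The groups overlapped for each gene, whereas 29.5% of all genes tested in basal cells had groups that did not overlap and 23.3% had every wounded library below both un-wounded libraries. Un-wounded 1 was the lowest library for Mt1 and Mt2, and without un-wounded 2 the Mt4 value was 0.079. The mix of basal clusters also differed between libraries. A cluster led by Serpinb2 and Epgn, with Fosl1 among its top genes, made up 62.9%, 25% and 48.7% of basal cells in wounded libraries and 28.7% and 13.1% in un-wounded libraries. A cluster led by Fcgbp made up 7.43%, 34.4% and 14.1% in wounded libraries and 28.0% and 59.9% in un-wounded libraries. For both clusters wounded 2, with 32 basal cells, lay between the un-wounded libraries.

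In fibroblasts the average levels of Mt1 and Mt2 were higher in wounded libraries, and the groups overlapped. Mt1 was 4079, 8182 and 6218 CPM in wounded libraries and 2075 and 5873 CPM in un-wounded libraries, a log2 fold change of 0.73 ± 0.50 with an edgeR adjusted p of 0.460. Mt2, at the levels given above, had 1.08 ± 0.47 with an edgeR adjusted p of 0.227. Wounded 1 was below un-wounded 2 for both genes. The 3 fibroblast clusters led by Cxcl5, by Cxcl13 and by Ccl8 came almost wholly from wounds, and the cluster led by Ccl8, which codes for a chemokine, had 7537, 16668 and 8950 CPM of Mt1 in the wounded libraries. Mt4 in fibroblasts was 8.43, 0.870 and 2.64 CPM in wounded libraries and 18.1 and 22.0 CPM in un-wounded libraries. It had a log2 fold change of −2.26 ± 0.63 with an edgeR adjusted p of 0.0624 (without wounded 1 it was called, with −3.36 and an adjusted p of 0.000199), and its groups did not overlap, as in 40.1% of all genes tested in fibroblasts. Krt1 and Krt10 together stood at 225, 79.0 and 72.2 CPM in wounded fibroblasts and 661 and 237 CPM in un-wounded fibroblasts, and their part in the Mt4 value was not tested.

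In outer root sheath or bulge keratinocytes, cells of the hair follicle, Mt1 was 2549, 7183 and 5803 CPM in wounded libraries and 1484 and 4272 CPM in un-wounded libraries. Its log2 fold change was 0.997 ± 0.56 with an edgeR adjusted p of 0.689, and Mt2 had 0.90 ± 0.58 with an edgeR adjusted p of 0.717. Mt4 in these cells rested on 2 to 71 UMIs a library and had −0.76 ± 0.54 with an edgeR adjusted p of 0.750. Wounded 1 lay between the un-wounded libraries for Mt1 and Mt2. In these cells 25.4% of all genes tested had groups that did not overlap, and 17.3% had every wounded library the lower.

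Upper hair follicle keratinocytes stood the other way. Mt2 was 315, 120 and 259 CPM in wounded libraries and 545 and 432 CPM in un-wounded libraries. Mt1, at the levels given above, and Mt2 each had every wounded library below both un-wounded libraries, an order that 14.6% of all genes tested in that class showed. The log2 fold changes were −0.46 ± 0.33 for Mt1 and −0.86 ± 0.37 for Mt2, both with an edgeR adjusted p of 0.99997. Mt4 was 94.0, 0 and 8.11 CPM in wounded libraries and 78.2 and 81.2 CPM in un-wounded libraries, with −0.66 ± 0.58 and an edgeR adjusted p of 0.99997. The value of 0 allows up to 15.7 CPM in wounded 2 by counting error alone.

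Over all kept cells Mt4 was 208, 31.7 and 63.9 CPM in wounded libraries and 291 and 486 CPM in un-wounded libraries. The groups did not overlap, as in 46.2% of all genes tested, with every wounded library the lower in 23.0%, and the log2 fold change was −1.95 ± 0.72 with an edgeR adjusted p of 0.164. Without wounded 1 it was −2.90 and was called, with an edgeR adjusted p of 0.0209. The share of spinous cells, given above, was also lower in each wounded library than in both un-wounded libraries, and in such a sum fewer spinous cells and less Mt4 per cell cannot be told apart. Mt1 over all kept cells was 3011, 4610 and 3730 CPM in wounded libraries and 2220 and 4216 CPM in un-wounded libraries, with a log2 fold change of 0.29 ± 0.39 and an edgeR adjusted p of 0.667. Mt2 was 2477, 3114 and 3028 CPM in wounded libraries and 2232 and 3195 CPM in un-wounded libraries, with 0.13 ± 0.31 and an edgeR adjusted p of 0.823. Without un-wounded 1 both values turned, to −0.063 for Mt1 and −0.061 for Mt2.

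**Figure D5:**
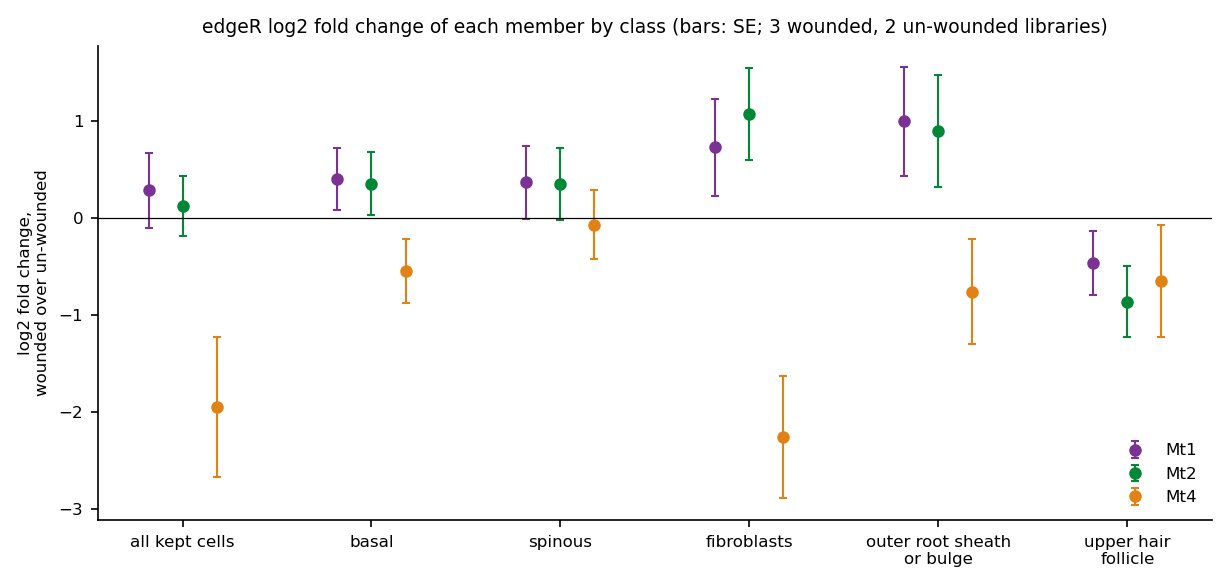
edgeR log2 fold change, wounded over un-wounded, of Mt1, Mt2 and Mt4 over all kept cells and in the 5 tested classes, with SE bars, from 3 wounded and 2 un-wounded libraries. No point passed the adjusted threshold; Mt4 lies at −0.07 in spinous cells and at −2.26 in fibroblasts.

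Whether the wound effect differed between classes was tested as an interaction with basal keratinocytes, with the library as a block. None of the 12 interactions gave an adjusted p under 0.05 in edgeR, 5 had an unadjusted p under 0.05, and DESeq2 called 0. No excess is read from the 5, since the matching share of all genes is not given here. The shares that follow are for adjusted p. Genes called made up 0.296% of those tested for spinous, 3.62% for fibroblasts, 0.297% for outer root sheath or bulge and 0.191% for upper hair follicle cells. The spinous minus basal difference in log2 fold change was 0.05 for Mt1, 0.10 for Mt2 and 0.45 ± 0.19 for Mt4, the last with an edgeR adjusted p of 0.857. For fibroblasts minus basal cells it was 0.84 ± 0.28 for Mt2 and −1.47 ± 0.49 for Mt4, with edgeR adjusted p of 0.131 and 0.126. For upper hair follicle minus basal cells it was −0.92 ± 0.24 for Mt1 and −1.26 ± 0.28 for Mt2, with edgeR adjusted p of 0.139 and 0.0713. Leaving out a library made calls. Without wounded 3 edgeR called spinous minus basal Mt4 (0.72, adjusted p 0.0203). Without wounded 1 it called fibroblasts minus basal for Mt1 (0.67, adjusted p 0.0437), Mt2 (1.05, adjusted p 0.00012) and Mt4 (−2.76, adjusted p 1.01e-08), outer root sheath or bulge minus basal for Mt1 (1.03, adjusted p 0.00689) and Mt2 (1.07, adjusted p 0.0171), and upper hair follicle minus basal for Mt1 (−1.09, adjusted p 0.0258) and Mt2 (−1.54, adjusted p 0.00409). Without un-wounded 2 it called fibroblasts minus basal for Mt4 (−1.87, adjusted p 0.00254) and upper hair follicle minus basal for Mt1 (−1.24, adjusted p 0.0168) and Mt2 (−1.63, adjusted p 0.000198). The interactions other than spinous minus basal were added after the values were seen.

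Dendritic cells and pericytes had under 30 cells in 1 library each and were fitted after their values were seen, with a minimum of 20 cells. In dendritic cells (236, 901 and 430 cells in wounded libraries, 22 and 108 in un-wounded libraries) Mt1 was 610, 736 and 1050 CPM in wounded libraries and 2731 and 3013 CPM in un-wounded libraries. Mt1 fell by 1.71 ± 0.33 on the log2 scale, with an edgeR adjusted p of 0.0242. Mt2 was 203, 398 and 518 CPM in wounded libraries and 1513 and 1520 CPM in un-wounded libraries and fell by 1.87 ± 0.40, with an edgeR adjusted p of 0.0349. Mt4 was 4.00, 5.70 and 2.35 CPM in wounded libraries and 30.3 and 23.6 CPM in un-wounded libraries. These levels rested on 7, 40 and 10 UMIs in wounded libraries and 4 and 18 UMIs in un-wounded libraries. Mt4 fell by 2.51 ± 0.52, with an edgeR adjusted p of 0.0325. Genes called made up 2.97% of those tested there, and the 3 genes had every wounded library below both un-wounded libraries, an order shown by 11.9% of all genes with a UMI in that class. The calls of Mt1 and Mt2 were lost without wounded 2 (adjusted p 0.0687 and 0.0751), without un-wounded 1 (0.109 and 0.142) and without un-wounded 2 (0.269 and 0.288). That of Mt4 was lost without wounded 3 (0.0606), without un-wounded 1 (0.112) and without un-wounded 2 (0.358).

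In dendritic cells the spinous and the macrophage or monocyte marker sums were lower in every wounded library than in both un-wounded libraries. The basal keratinocyte and the fibroblast marker sums overlapped between the groups. The 8 basal keratinocyte markers summed to 599, 51.6 and 306 CPM in wounded libraries and 4576 and 570 CPM in un-wounded libraries, and the 8 spinous markers to 265, 105 and 99.6 CPM against 1483 and 409 CPM, with Dsc1 at 0 in every library. The 11 macrophage or monocyte markers summed to 1757, 1030 and 1510 CPM in wounded libraries and 5197 and 5808 CPM in un-wounded libraries. C1qa, C1qb and C1qc were at 0 in un-wounded 1. The 8 fibroblast markers summed to 695, 963 and 407 CPM in wounded libraries and 590 and 1535 CPM in un-wounded libraries. The cluster led by Ccl22 and Ccr7 made up 18.1% of wounded and 1.54% of un-wounded dendritic cells. The part of these markers in the metallothionein values was not tested. Within the other dendritic cluster alone Mt1 was 653, 699 and 1054 CPM in wounded libraries and 2731 and 3053 CPM in un-wounded libraries.

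Cells of the pericyte or smooth muscle class (593, 26 and 87 cells in wounded libraries, 49 and 30 in un-wounded libraries) had 1787, 5460 and 1818 CPM of Mt1 in wounded libraries and 8109 and 9422 CPM in un-wounded libraries. The log2 fold change was −1.54 ± 0.53 with an edgeR adjusted p of 0.0805, and 17.4% of genes tested were called in that class. Without wounded 2 the edgeR adjusted p was 0.0157 for Mt1 and 0.0331 for Mt2. Mt2 was 527, 1894 and 628 CPM in wounded libraries and 1494 and 2655 CPM in un-wounded libraries, with −1.05 ± 0.57 and an edgeR adjusted p of 0.232. Summed fibroblast markers in these cells were 4203, 5375 and 5944 CPM in wounded libraries and 684 and 1625 CPM in un-wounded libraries, with Pdgfra at 0 in wounded 2 and both un-wounded libraries, and their part was not tested.

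In the unnamed cluster led by Gzma and Ms4a4b (71, 492 and 221 cells in wounded libraries, 31 and 156 in un-wounded libraries) Mt4 was 10.2, 1.36 and 0.867 CPM in wounded libraries and 41.7 and 32.1 CPM in un-wounded libraries. The fit of that cluster was added after its values were seen. The Mt4 levels rested on 3, 3 and 1 UMIs in wounded libraries and 3 and 20 UMIs in un-wounded libraries. Krt1 and Krt10 together stood at 163, 23.1 and 30.4 CPM in wounded libraries and 696 and 181 CPM in un-wounded libraries. Their part in the Mt4 value was not tested. The log2 fold change of Mt4 was −3.87 ± 0.78 with an edgeR adjusted p of 0.0441, where 1.01% of genes tested were called. The call was lost without wounded 2 (adjusted p 0.0890), without wounded 3 (0.0563) and without un-wounded 1 (0.0694); without un-wounded 2, Mt4 did not pass the filter on low counts. Mt4 followed the same order in the sum over non-keratinocyte classes, at the levels given above. Mt1 and Mt2 in that cluster had log2 fold changes of −0.11 and −0.40 and were not called.

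The pathways that act on metallothioneins are described next. Calls in each list are read beside the share of all genes called. That share was 1.84% in basal cells, 1.64% in spinous cells and 7.51% in fibroblasts. It was 0.725% in outer root sheath or bulge cells and 0.207% in upper hair follicle cells. A single call in a fibroblast list is therefore not read as a response of that list. Of 21 genes of zinc sensing and transport, 18 were tested in basal, spinous and fibroblast cells each. Slc39a2, a zinc importer, rose in basal keratinocytes (4.72 ± 0.529 CPM in wounded and 0.861 ± 0.320 CPM in un-wounded libraries, log2 fold change 2.61, edgeR adjusted p 0.0187) and in spinous keratinocytes (log2 fold change 2.00, edgeR adjusted p 0.0280). Slc39a14, another importer, rose in fibroblasts to 71.2 ± 14.5 CPM in wounded libraries, against 28.8 ± 9.03 CPM in un-wounded libraries (log2 fold change 1.38, edgeR adjusted p 0.0261). No other member of the zinc list was called there, none fell, and 0 of 6 were called in outer root sheath or bulge cells, 0 of 14 in upper hair follicle cells and 0 of 19 over all kept cells. The list's median log2 fold change was 0.06 in basal cells, 0.11 in spinous cells and −0.21 in fibroblasts, beside −0.03, −0.04 and −0.01 over all genes tested. The most abundant members were Slc39a1, Slc39a6 and Slc39a7 in basal and spinous cells. They were Slc39a1, Slc39a7 and Slc39a14 in fibroblasts and over all cells, Slc39a1, Slc39a7 and Slc39a13 in outer root sheath or bulge cells and Slc39a1, Slc39a8 and Slc39a11 in upper hair follicle cells. Of 9 copper-handling genes 6 to 8 were tested and none was called in any comparison by edgeR. Atox1, the copper chaperone and the most abundant of them in each class, had 820 ± 69.4 CPM in wounded and 634 ± 42.1 CPM in un-wounded spinous cells, with an edgeR adjusted p of 0.657. Commd1 was also among the top 3 copper genes in every class, with Slc31a2 in basal, spinous and upper hair follicle cells, Cox17 in fibroblasts and over all cells, and Sod1 in outer root sheath or bulge cells.

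Of 12 oxidative stress genes controlled by Nfe2l2, all were tested in basal, spinous and fibroblast cells, and 2 rose in each, Hmox1 and Slc7a11. Hmox1, which degrades haem, had 102 ± 39.1 CPM in wounded and 16.9 ± 0.684 CPM in un-wounded fibroblasts, a log2 fold change of 2.71 with an edgeR adjusted p of 0.00338. Its log2 fold change was 1.79 in basal and 3.74 in spinous cells, with edgeR adjusted p of 0.0206 and 0.0157. Slc7a11, the cystine importer, had log2 fold changes of 4.32 in basal cells, 5.19 in spinous cells and 6.09 in fibroblasts, with edgeR adjusted p of 0.00874, 0.0191 and 0.00345. The list's median log2 fold change was 0.37 in basal cells, 0.30 in spinous cells and 0.63 in fibroblasts. Nfe2l2, Txn1 and Prdx1 were its most abundant members by the naming rule in each class, and none of them was called. In outer root sheath or bulge cells, in upper hair follicle cells and over all kept cells 7, 9 and 12 members were tested and edgeR called none.

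Of 11 glucocorticoid response genes 8 to 10 were tested. Sgk1 rose in fibroblasts to 125 ± 9.73 CPM in wounded libraries, against 60.1 ± 11.8 CPM in un-wounded libraries (edgeR adjusted p 0.0156). Errfi1 rose in outer root sheath or bulge cells (log2 fold change 1.68, edgeR adjusted p 0.0465). No other member was called in the 5 classes or over all kept cells. Dusp1, the most abundant member in every class, had 845 ± 275 CPM in wounded and 1061 ± 427 CPM in un-wounded spinous cells, with an edgeR adjusted p of 0.965. Klf9, nearest to Mt1 after Mt2 in the likeness above, had 267 ± 93.4 CPM in wounded and 394 ± 71.6 CPM in un-wounded fibroblasts, with an edgeR adjusted p of 0.424. Tsc22d3 in spinous cells and Sgk1 in upper hair follicle cells were also among the top 3 and were not called.

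Of 10 genes of the IL-6 type cytokine response, an acute-phase pathway, 8 to 10 were tested. Saa3, an acute-phase protein, rose in each of the 5 classes, to 1528 ± 1441 CPM in wounded fibroblasts, against 1.28 ± 1.82 CPM in un-wounded fibroblasts (edgeR adjusted p 0.00236). Its wounded means in the keratinocyte classes were far lower. They were 19.7 CPM in basal, 19.7 in spinous, 25.1 in outer root sheath or bulge and 23.5 in upper hair follicle cells. The part of free RNA in those low levels was not tested. Lcn2, which binds iron carriers, rose in basal, fibroblast and outer root sheath or bulge cells, with edgeR adjusted p of 0.00951, 0.0219 and 0.0134. Osmr rose in fibroblasts, Bcl3 in spinous cells and Pim1 in outer root sheath or bulge cells. Socs3 and Junb, among the most abundant members in every class, Stat3 in the hair follicle classes and Pim1 in basal and spinous cells were not called; Socs3 had 300 ± 112 CPM in wounded and 606 ± 176 CPM in un-wounded basal cells, with an edgeR adjusted p of 0.307.

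Of 15 differentiation genes set beside Mt4, 14 were tested in spinous cells, where Fabp5, a fatty acid carrier, and Ivl, a precursor of the cornified envelope, rose and none fell. Their median log2 fold change was 0.45. Fabp5 had 3611 ± 2760 CPM in wounded and 449 ± 2.19 CPM in un-wounded spinous cells (edgeR adjusted p 0.00979), and Ivl 24.5 ± 9.21 and 7.89 ± 1.44 CPM (edgeR adjusted p 0.00973). Krt10, with 14475 ± 3667 CPM in wounded and 14454 ± 3224 CPM in un-wounded spinous cells, and Krtdap and Lgals7 did not pass, with edgeR adjusted p of 0.952, 0.921 and 0.841. Fabp5 also rose in basal, fibroblast and outer root sheath or bulge cells. In fibroblasts Krtdap, Calml3 and Lgals7, keratinocyte genes, fell with edgeR adjusted p of 0.0356, 0.0110 and 0.0418. Sbsn, Calml3 and Lgals7 were the most abundant in outer root sheath or bulge cells. Over all kept cells 0 of 14 were called, with a list median of −1.60 beside −0.04 over all genes tested.

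Cell isolation itself induces immediate early genes and heat shock genes. Of 16 such genes, all tested in each class, only Ier3 was called by edgeR, in fibroblasts, where it rose with an edgeR adjusted p of 0.0337. Their summed level over all kept cells was 21749, 16768 and 12725 CPM in wounded libraries and 26654 and 17181 CPM in un-wounded libraries. Un-wounded 1 had the highest sum over all kept cells. Within classes the highest sum was that of un-wounded 1 in fibroblasts and of wounded 1 in basal cells, with 29630 CPM in wounded 1 and 28822 CPM in un-wounded 1, and in spinous cells, with 21514 and 18617 CPM. Fos and Jun were among the top 3 in each class, with Atf3 in basal and spinous cells, Jund in fibroblasts and Junb in outer root sheath or bulge and upper hair follicle cells.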

How the data were processed

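Whole skin cells of 3 wounded and 2 un-wounded samples were profiled by droplet 3′ sequencing, 1 library a sample. The deposited files hold whole-number UMI counts per gene and barcode, made by the authors with Cell Ranger 1.3.1 on mm10, per the submitters' processing notes. Depth was 33537809 to 59621412 UMIs a library; intervals cover counting error only. Cells with under 200 genes or over 10% mitochondrial UMIs were removed. Doublets were scored with Scrublet, as given in scanpy, and removed at 0.8% per 1000 barcodes. Cells were scaled to 10000 UMIs, reduced to 30 components of 2000 variable genes (metallothioneins left out) and clustered by Leiden at resolution 1.0 (scanpy 1.11.5, Python 3.11.15). Clusters took a name only with at least 3 markers at 10 CPM and a clear lead over the next type.

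UMIs were summed per library and class where every library had 30 cells. edgeR 4.0.16 (R 4.3.3) fitted TMM-scaled sums with its quasi-likelihood test over all genes left by its filter on low counts; a gene with an adjusted p under 0.05 is called. The SE of a log2 fold change was derived from the quasi-likelihood F. Interactions kept the library as a block. The steps were tested on simulated data. Alternatives were DESeq2 1.42.0, no filter, no TMM, a replicate block, doublets kept, a 5% mitochondrial limit, 500 genes, resolution 2.0, metallothioneins among variable genes, removal of the 2 highest cells and each library left out. Shares and ratios had exact permutation tests.

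The genes and lists were chosen with earlier results of these data known. The 3 most abundant members of each list and any member called are named, and the 5 genes most like each metallothionein. Promoter windows are RefSeq's on GRCm38.p6, and gene positions are GENCODE's on GRCm38. Trac and Trdc, 2 of the T cell markers, were not matched in the gene lists.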

Additional observations from a re-analysis of the deposited data

Results flagged for a closer look

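In some classes every wounded library lay on one side of both un-wounded libraries, while in others every wounded library lay on the opposite side. Mt1 averaged lower in wounded libraries by this order in dendritic cells, at 0.278 times the un-wounded mean, in pericytes or smooth muscle cells, at 0.345 times, and in upper hair follicle keratinocytes, at 0.639 times. In the unnamed cluster led by Sostdc1 and Fst it averaged higher, at 1.65 times. Mt2 averaged 0.246 times the un-wounded mean in dendritic cells and 0.474 times in upper hair follicle keratinocytes, and 1.62 times in the cluster led by Sostdc1 and Fst. Wounded libraries were all the lower in 11.9% of genes with a UMI in dendritic cells, in 14.3% in pericytes or smooth muscle cells and in 14.6% of genes tested in upper hair follicle keratinocytes. These differences between the classes were not tested. For the cluster led by Sostdc1 and Fst the share of genes with every wounded library the higher is not given here.

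The cluster led by Sostdc1 and Fst (316, 89 and 42 cells in wounded libraries, 492 and 406 in un-wounded libraries) had 5734, 4388 and 5413 CPM of Mt1 in wounded libraries and 3898 and 2364 CPM in un-wounded libraries. Its edgeR log2 fold change was 0.93 ± 0.36 with an adjusted p of 0.741, where 0.38% of genes tested were called. Mt2 there was 3127, 3024 and 3710 CPM in wounded libraries and 2536 and 1517 CPM in un-wounded libraries, with an edgeR adjusted p of 0.753.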

How the results depend on the processing

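No alternative setting made a call of Mt1, Mt2 or Mt4 in spinous or basal keratinocytes taken alone. Over settings other than leaving out a library, 322 values stayed the same, 18 reversed, 19 passed the threshold and 41 counts of genes moved by over 1.5 times. The 322 include effects that kept their direction and side of the threshold, and counts of genes that moved by at most 1.5 times. The causes were not tested. DESeq2 called Mt4 over all kept cells (−1.93, adjusted p 0.0470). Keeping doublets reversed basal Mt1 (−0.069), Mt2 (−0.045) and Mt4 (0.038), spinous Mt4 (0.016) and the spinous minus basal difference of Mt4 (−0.068). In that setting a basal cluster with Fcgbp, led by haemoglobin genes, took the erythroid name, and basal cells of un-wounded 2 numbered 411, against 957, so class membership changed with the doublets. With the replicate block, spinous Mt4 reversed (0.14) and Mt2 in fibroblasts (1.06), Mt4 in fibroblasts (−2.53), Mt1 and Mt2 in outer root sheath or bulge cells (0.87 and 0.88) and Mt2 in upper hair follicle cells (−1.03) passed the threshold. Whether equal numbers mark a shared day or animal is not given in the sources used here. With only 2 numbers shared, the libraries were treated as sharing a number alone. Same-numbered libraries deviated together with r of 0.14 to 0.46. The 2 un-wounded libraries mirror each other around their mean, so each wounded library had to go with 1 of them. Over all kept cells wounded 1 had 0.46 with un-wounded 1 and −0.46 with un-wounded 2. These r therefore cannot show a pairing. Wounded 3, alone under its number, adds nothing to the wound effect in the block fit. Mt4 in fibroblasts also passed with no filter (−2.25), no TMM (−2.33) and without the 2 highest cells (−2.45), and Mt4 in upper hair follicle cells with the 5% mitochondrial limit (−2.73). The spinous minus basal difference of Mt1 reversed with no TMM (−0.0074), and that of Mt4 passed without the 2 highest cells (0.68). The share with Mt1 reversed with no thinning (0.414 points) and at 750 UMIs (2.90 points).

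The other interactions with basal cells, added after the data were seen, passed as follows: fibroblast Mt2 with no filter (0.85) and doublets kept (1.16), fibroblast Mt4 with no filter (−1.47) and without the 2 highest cells (−1.25), outer root sheath Mt2 with no filter (0.70), and upper hair follicle Mt1 with no filter (−0.85) and Mt2 with no filter (−1.19) and without the 2 highest cells (−1.31). Mt4 reversed in outer root sheath cells under DESeq2 (−0.052), without the 2 highest cells (−1.81), at resolution 2.0 (−0.080) and with doublets kept (−1.38). It reversed in upper hair follicle cells under DESeq2 (−1.92), at resolution 2.0 (−0.058), with doublets kept (−1.23), at the 5% limit (−2.12) and with metallothioneins among variable genes (−0.93).

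With each library left out in turn, log2 fold changes over all kept cells ran from −0.063 to 0.74 for Mt1, −0.061 to 0.33 for Mt2 and −2.90 to −1.52 for Mt4. Leaving out a library called Mt4 over all kept cells and in fibroblasts (without wounded 1) and 8 of the 12 interactions, as given above. In basal cells Mt1 ran from 0.12 to 0.75, Mt2 from 0.096 to 0.66 and Mt4 from −0.99 to 0.079. In spinous cells Mt1 ran from −0.094 to 1.004, Mt2 from −0.12 to 0.997 and Mt4 from −0.54 to 0.59. In fibroblasts Mt1 ran from 0.15 to 1.69, Mt2 from 0.53 to 1.95 and Mt4 from −3.36 to −1.81. Outer root sheath cells ran from 0.39 to 2.04, 0.22 to 2.20 and −1.49 to −0.27, and upper hair follicle cells from −0.56 to −0.30, −1.05 to −0.58 and −3.62 to −0.31, for Mt1, Mt2 and Mt4. Spinous minus basal ran from −0.17 to 0.29 for Mt1, −0.17 to 0.38 for Mt2 and 0.17 to 0.72 for Mt4. Fibroblasts minus basal ran from 0.087 to 1.05 for Mt1, 0.51 to 1.42 for Mt2 and −2.76 to −0.90 for Mt4. Outer root sheath minus basal ran from 0.18 to 1.10, 0.054 to 1.38 and −0.73 to 0.46, and upper hair follicle minus basal from −1.24 to −0.47, −1.63 to −0.78 and −3.31 to 0.84, for Mt1, Mt2 and Mt4. Dendritic cells ran from −2.09 to −1.40, −2.31 to −1.52 and −3.03 to −2.29. Pericyte Mt1 ran from −2.27 to −1.20 and Mt2 from −1.84 to −0.49. The Gzma cluster ran from −0.74 to 0.72 for Mt1 and −4.58 to −3.38 for Mt4. Thinned shares ran from −6.98 to 3.47 points for Mt1, −9.21 to 4.78 for Mt2 and −19.2 to −6.86 for Mt4. The ratio of Mt4 to Mt1 and Mt2 ran from −0.59 to −0.10.

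Genes called over all kept cells numbered 94, against 2657 by DESeq2, 700 with no filter, 0 with the block and 24 without the 2 highest cells (0 to 2141 with a library left out). Basal cells had 209, against 130 by DESeq2, 369 with no filter, 126 with no TMM, 576 with the block, 69 at resolution 2.0 and 85 with doublets (106 to 207). Spinous cells had 179, against 368 with the block (29 to 269), and fibroblasts 999, against 1907 with no filter, 1717 with the block and 567 at resolution 2.0 (350 to 1334). Outer root sheath cells had 43, against 71 by DESeq2, 272 with no filter, 102 with the block and 8 without the 2 highest cells (15 to 116). Upper hair follicle cells had 16, against 59 with no filter and 119 with the block (6 to 52). Spinous minus basal had 35, against 2 by DESeq2, 74 with no filter, 12 with no TMM, 2 at resolution 2.0, 2 at the 5% limit, 10 at 500 genes and 19 with metallothioneins among variable genes (4 to 92). Fibroblasts minus basal had 501, against 232 by DESeq2, 754 with no filter and 97 at resolution 2.0 (405 to 658). Outer root sheath minus basal had 28, against 14 by DESeq2, 100 with no filter, 85 without the 2 highest cells and 8 at resolution 2.0 (1 to 92). Upper hair follicle minus basal had 18, against 1 by DESeq2, 73 with no filter, 10 with no TMM, 47 without the 2 highest cells, 4 at resolution 2.0, 1 with doublets and 7 at the 5% limit (4 to 48).

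The wound comparison rests on 3 wounded and 2 un-wounded libraries, and wounded 2 had 32 basal and 49 spinous cells. Class names were rebuilt from marker genes, and Mt4 outside spinous cells rests on few UMIs. The interactions already hold the library as a block, so the replicate block was not added to them.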
